A study of Mus musculus with 8 samples.

Results

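The tricarboxylic acid (TCA) cycle, pyruvate and citrate shuttle genes are 31 named genes, picked by symbol from a table of read counts for 18022 genes in mouse subcutaneous fat. All 31 were present, and all 31 were among the 14556 genes with enough reads to be tested. They comprise 10 genes of pyruvate use, 15 of the cycle and its cytosolic counterparts, 3 mitochondrial carriers and 3 genes that link the cycle to amino acids. The fewest reads of one of these genes in a library was 17, and the most was 2144.

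The KO libraries came from 4 mice labelled Pkd1 adipo delta/delta, a deletion of Pkd1 in adipocytes, and the WT libraries from 4 floxed mice labelled Pkd1 flox/flox. All 8 mice were C57BL/6J by 4 back-crosses, and poly(A) RNA of whole frozen subcutaneous adipose tissue was sequenced, one mouse to a library. The labels used here name no Cre driver, age or sex. By Pkd1 the study means the kinase PKD1, encoded by Prkd1; the gene with the official symbol Pkd1 is another one and encodes polycystin 1. A name such as KO3 gives a library's label and replicate number.

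In fat cells, pyruvate enters mitochondria, where pyruvate dehydrogenase turns it into acetyl-CoA and pyruvate carboxylase turns it into oxaloacetate. Citrate synthase joins these into citrate, which either runs through the cycle or leaves by the citrate carrier. In the cytosol, citrate is cleaved to acetyl-CoA for fatty acid synthesis. The oxaloacetate left over is reduced to malate, and malic enzyme turns malate into pyruvate and yields NADPH. White fat is a tissue where this export and return of carbon is known to supply lipogenesis.

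Each library held between 2617755 (WT2) and 2873457 (KO2) reads. Reads of the deleted gene were not fewer under the KO label: Prkd1 (ENSMUSG00000002688) had 71, 108, 84 and 94 reads in KO1 to KO4, against 88, 72, 94 and 73 reads in WT1 to WT4. Its log2 fold change was 0.06 ± 0.15 (SE; 95% interval -0.26 to 0.39; edgeR quasi-likelihood adjusted p = 0.998). These counts cover the whole gene and all cells of the tissue, so they do not check the labels. All 8 adipocyte markers were detected in every library, at a summed 14036 to 18791 CPM (counts-per-million reads, scaled by TMM) in KO libraries and 14826 to 17429 CPM in WT libraries. The 20 skeletal muscle markers summed to 3563, 2205, 376 and 3994 CPM in KO1 to KO4, against 391, 215, 525 and 78.8 CPM in WT1 to WT4, and 4 of the 20 were at 0 in at least one library. KO1, KO2 and KO4 thus stood apart from the other 5 libraries in muscle transcripts. The skeletal muscle index used as a covariate is the mean log2 CPM of these 20 markers. The 10 liver markers summed to 1292 to 2033 CPM in KO libraries and 1675 to 3784 CPM in WT libraries, of which Trf, which fat also expresses, made up 73.7%, and Fga and Ahsg were at 0 in at least one library. The 3 small intestine markers in the table summed to 1.07 to 24.5 CPM in KO libraries and 8.58 to 523 CPM in WT libraries, of which Apoa4 made up 68.1%. The 7 lymphoid markers summed to 44.8 to 63.1 CPM in KO libraries and 67.8 to 131 CPM in WT libraries, without overlap. Ighm alone made up 87.2% of that sum, and 1 of the 7 had enough reads to be tested. Of all genes tested, 2.92% did not overlap between the labels. Fits with the muscle level as a covariate are given beside the values of some genes, and for every turn of sign further on. The muscle index largely went with the label, at 5.91 ± 1.51 in KO and 2.92 ± 1.41 in WT libraries (mean and SD). Only KO3, at 3.71, lay inside the WT range. Such a fit therefore cannot fully separate the label from the muscle level, and its values are not corrected effects. None of the genes picked for this pathway had an unadjusted edgeR p under 0.05 in it. The part of liver, intestine and lymphoid transcripts in the results was not tested. In such bulk samples, fewer cells of a type and less RNA per cell cannot be told apart.

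The stretches 250 bases before the transcription start of the 3 carriers and of Idh2 are shown because these genes had opposite signs of relation to lipogenic transcripts, as given further on. They are RefSeq sequences of build GRCm38.p6, written 5′ to 3′ on the gene's strand, at chr16:17928220-17928469 (minus) for Slc25a1, chr11:120491587-120491836 (plus) for Slc25a10, chr11:70647040-70647289 (minus) for Slc25a11 and chr7:80115351-80115600 (minus) for Idh2. Capitals mark an E-box (CACGTG) or a CCAAT box on either strand.
Slc25a1: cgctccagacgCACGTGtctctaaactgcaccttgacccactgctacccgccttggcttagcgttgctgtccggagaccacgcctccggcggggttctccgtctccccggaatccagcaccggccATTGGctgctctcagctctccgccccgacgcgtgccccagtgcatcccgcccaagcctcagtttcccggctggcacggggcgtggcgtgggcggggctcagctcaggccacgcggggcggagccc
Slc25a10: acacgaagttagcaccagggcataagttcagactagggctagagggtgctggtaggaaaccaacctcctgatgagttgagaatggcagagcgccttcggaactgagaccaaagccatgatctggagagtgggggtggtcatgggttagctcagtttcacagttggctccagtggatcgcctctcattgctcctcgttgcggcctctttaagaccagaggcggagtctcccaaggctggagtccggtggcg
Slc25a11: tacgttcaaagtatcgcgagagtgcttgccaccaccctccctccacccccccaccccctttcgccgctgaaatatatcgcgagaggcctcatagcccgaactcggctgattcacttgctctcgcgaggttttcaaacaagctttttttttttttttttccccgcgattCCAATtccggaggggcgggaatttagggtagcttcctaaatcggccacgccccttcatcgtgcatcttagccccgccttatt
Idh2: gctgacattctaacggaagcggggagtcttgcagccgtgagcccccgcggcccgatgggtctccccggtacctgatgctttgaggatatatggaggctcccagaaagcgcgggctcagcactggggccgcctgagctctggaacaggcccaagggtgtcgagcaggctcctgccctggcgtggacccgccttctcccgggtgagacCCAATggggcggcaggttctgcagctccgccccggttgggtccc

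Slc25a1 had 1 E-box beginning 239 bases before the start and 1 CCAAT box, on the other strand, at 125 bases. Slc25a11 had 1 CCAAT box at 82 bases and Idh2 had 1 at 44 bases, while Slc25a10 had neither motif in this window. Of the 31 genes, 29 had a promoter in the RefSeq table, some with several starts, any of which was counted. An E-box was found for 4 of the 29 (Slc25a1, Pcx, Pdk2 and Ogdh), against 6.86% of all 27025 listed genes counted the same way. A CCAAT box was found for 16 of the 29, against 37.5% of all genes, and a GC box (GGGCGG) for 20, against 35.4%. The estrogen-related receptor element AAGGTCA was found for 1 of the 29, against 4.70%, and the sterol response element TCACNCCAC for 0, against 1.22%. The 27025 listed genes include genes not tested in this fat, so these shares do not set the 29 against expressed genes only. Each motif was searched on both strands with N as any base. No 2 kinds of marked motif overlapped in the 4 sequences shown, and a match is a description of letters only.

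The carriers Slc25a10 and Slc25a1 and the enzymes Pcx and Cs had the highest transcript levels per length. Levels per length are CPM per kilobase of the longest coding transcript in GENCODE M21. The order given here and below holds for that length only, since reads were counted per gene. The exons of Cs add up to 5779 bases, against 2926 in its longest coding transcript. Those of Slc25a10 add up to 3455 against 2023 bases, and those of Mdh1 to 2567 against 2122 bases. With exon length, genes such as Cs would stand lower relative to Mdh1. Slc25a10, the dicarboxylate carrier that exchanges malate or succinate for phosphate, stood at 168 ± 52.5 CPM per kilobase in KO libraries and 214 ± 42.7 in WT libraries (SD, n = 4 each). Slc25a1, the citrate carrier, stood at 178 ± 25.3 CPM per kilobase in KO libraries and 188 ± 28.2 in WT libraries. Next came pyruvate carboxylase, Pcx, with 144 ± 9.85 CPM per kilobase in KO libraries and 153 ± 29.0 in WT libraries. Citrate synthase, Cs, followed with 122 ± 11.6 CPM per kilobase in KO libraries and 123 ± 16.7 in WT libraries. The means of Slc25a10 and Slc25a1 over all 8 libraries, 191 ± 50.5 and 183 ± 25.3 CPM per kilobase, differed by less than their spread, as did those of Cs, Mdh1 and Mdh2.

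The malate dehydrogenases, Idh1 and Pdha1 came next in the order. Mdh1 and Mdh2, the cytosolic and mitochondrial malate dehydrogenases, both had a mean of 117 CPM per kilobase over the 8 libraries. Cytosolic isocitrate dehydrogenase, Idh1, had 107 ± 13.2 CPM per kilobase, and Pdha1, the alpha subunit of pyruvate dehydrogenase, had 76.3 ± 4.49 (SD, n = 8). At the low end stood the regulators of pyruvate dehydrogenase: the kinase Pdk3 at 3.61 ± 0.628, the phosphatase Pdp1 at 4.40 ± 0.918 and the kinase Pdk1 at 7.87 ± 1.64 CPM per kilobase over the 8 libraries. Pdk2 was the exception among these regulators, at 25.6 ± 8.05 CPM per kilobase. The cytosolic aspartate aminotransferase Got1 had 6.67 ± 3.29 and its mitochondrial counterpart Got2 had 10.7 ± 2.16 CPM per kilobase.

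**Figure D1:**
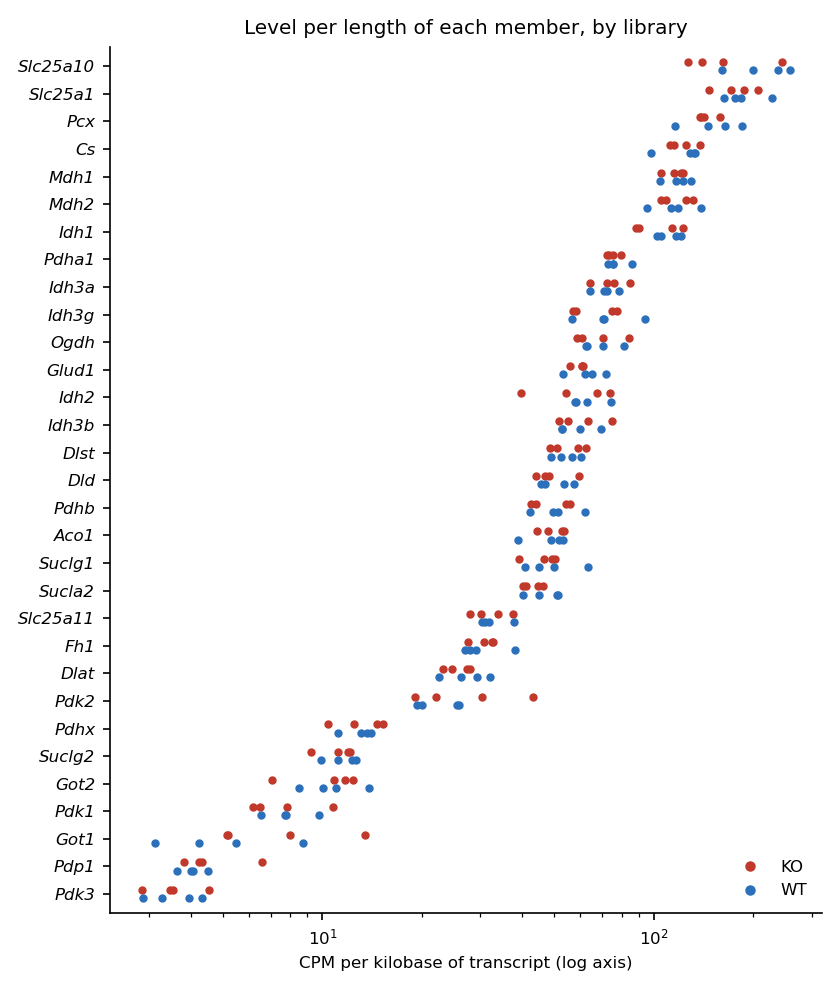
Transcript level per kilobase of the longest coding transcript (CPM per kilobase, log axis) for the 31 genes, ordered by their mean over 8 libraries. Each point is one library, KO above WT in each row. Slc25a10, Slc25a1, Pcx and Cs lie at the top, with Pdp1 and Pdk3 at the bottom, and KO and WT points overlap in every row.

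The first comparison set KO libraries against WT libraries, the contrast for which the study was made. By edgeR's quasi-likelihood test, 0 of the 31 and 0 of all 14556 genes had an adjusted p under 0.05 (percent called 0). The smallest adjusted p over all genes was 0.539, and each of the 31 had an adjusted p of 0.998. Without adjustment, 653 genes had a p under 0.05, which is 4.49% of those tested, and 0 of the 31 were among them. The CPM of the 4 KO and 4 WT libraries did not overlap for 425 genes, 2.92% of those tested, and for 0 of the 31. DESeq2 called 49 of 17986 genes, 0.272%, and 0 of the 31. Without KO3, the KO library with few muscle reads, edgeR called 50 of 14865 genes higher and 0 of the 31. Log2 fold changes were positive for 11 and negative for 20 of the 31, with a median of -0.03, against 7290 positive and 7266 negative over all genes with a median of 0.00.

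In the authors' deposited table, 436 of 18022 genes had an adjusted p under 0.05, and 0 of the 31 were among them. At so small a share, that count is not a result about the 31 genes. Got1 was the only one of the 31 with an unadjusted p under 0.05 there (log2 fold change 0.54, p = 0.0421, adjusted p = 0.709, in the authors' deposited table).

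The carriers had negative log2 fold changes in 3 of 3 cases, with a median of -0.07, and none passed the test. Slc25a10 (ENSMUSG00000025792) had 257, 329, 283 and 493 CPM in KO1 to KO4, against 324, 404, 520.4 and 479 CPM in WT1 to WT4. KO4 lay among the WT libraries while KO1 and KO3 lay below all of them. The log2 fold change was -0.34 ± 0.21 (SE; 95% interval -0.79 to 0.11; edgeR adjusted p = 0.998). It ranged from -0.58 without KO4 to -0.23 without KO1, and it was -0.51 with the skeletal muscle index as a covariate. Slc25a10 overlaps the gene Gm11788 on the opposite strand by 228 bases, and the kit did not mark strand, so reads of the overlap cannot be assigned. Gm11788 had 76 to 141 reads in KO libraries and 94 to 161 in WT libraries.

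Slc25a1 (ENSMUSG00000003528) had 286, 311, 245 and 345 CPM in KO1 to KO4, against 272, 293, 379.9 and 305 CPM in WT1 to WT4. The highest and the lowest library carried different labels, WT3 and KO3, and the groups overlapped. The log2 fold change was -0.07 ± 0.15 (SE; 95% interval -0.39 to 0.24), and it was -0.33 with the skeletal muscle index as a covariate. Slc25a11 (ENSMUSG00000014606), the oxoglutarate carrier of the malate-aspartate shuttle, had 64.4, 51.5, 58.0 and 47.8 CPM in KO1 to KO4, against 52.9, 64.9, 51.8 and 54.4 CPM in WT1 to WT4. Its log2 fold change was -0.01 ± 0.13 (SE; 95% interval -0.30 to 0.27).

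Of the 10 genes of pyruvate use, 4 had a log2 fold change above 0 and 6 below it (median -0.03), and none passed the test. Pcx (ENSMUSG00000024892), which refills oxaloacetate, had 572, 590.1, 575 and 659 CPM in KO1 to KO4, against 482, 607, 766 and 679 CPM in WT1 to WT4. The KO libraries lay inside the WT range, and the log2 fold change was -0.08 ± 0.15 (SE; 95% interval -0.41 to 0.25). Pdha1 (ENSMUSG00000031299) had 214, 227, 209 and 206 CPM in KO1 to KO4, against 215, 245, 208 and 215 CPM in WT1 to WT4. It varied least of the 31, with a coefficient of variation of 5.89% over the 8 libraries, and its log2 fold change was -0.04 (95% interval -0.29 to 0.20).

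The other subunits of the pyruvate dehydrogenase complex did not pass the test either. Pdhb, the beta subunit, had 74.4 ± 10.3 CPM in KO libraries and 77.6 ± 12.4 CPM in WT libraries (SD, n = 4 each). Dlat, the acetyltransferase core, had 104 ± 9.08 CPM in KO libraries and 111 ± 16.8 CPM in WT libraries. Dld, the dihydrolipoamide dehydrogenase shared with other complexes, had 127 ± 17.1 CPM in KO libraries and 129.6 ± 14.0 CPM in WT libraries. Pdhx, which binds Dld to the complex, had 33.0 ± 5.48 CPM in KO libraries and 32.5 ± 3.20 CPM in WT libraries. The 4 log2 fold changes were -0.06, -0.10, -0.03 and 0.02, with standard errors of 0.13 to 0.15. That of Dld was -0.23 with the skeletal muscle index as a covariate.

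Among the regulators, Pdk2 (ENSMUSG00000038967), a kinase that switches pyruvate dehydrogenase off, had 96.7, 49.4, 67.9 and 42.8 CPM in KO1 to KO4, against 43.3, 57.3, 45.0 and 58.0 CPM in WT1 to WT4. KO1 and KO3 lay above all WT libraries and KO4 below all of them. The log2 fold change was 0.33 ± 0.23 (SE; 95% interval -0.17 to 0.84). It was 0.07 without KO1 and 0.56 with the skeletal muscle index as a covariate. Pdk1 had 40.5 ± 11.0 CPM in KO libraries and 41.1 ± 6.95 CPM in WT libraries, and Pdk3 had 7.63 ± 1.48 CPM in KO libraries and 7.64 ± 1.39 CPM in WT libraries. Pdp1, the phosphatase that switches the complex back on, had 19.9 ± 5.21 CPM in KO libraries and 17.1 ± 1.48 CPM in WT libraries, with a log2 fold change of 0.22 and a standard error of 0.19. Without KO1 that value was 0.02.

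Of the 15 genes of the cycle and its cytosolic counterparts, 6 had a log2 fold change above 0 and 9 below it (median -0.01), and none passed the test. Cs (ENSMUSG00000005683) had 327, 365, 337 and 403 CPM in KO1 to KO4, against 288, 391, 376 and 388 CPM in WT1 to WT4. The highest was KO4 and the lowest WT1, and the log2 fold change was -0.01 ± 0.14 (SE; 95% interval -0.30 to 0.28). Of the other 14 genes, the log2 fold changes ran between -0.13 for Idh3g, a regulatory subunit of the NAD-dependent isocitrate dehydrogenase, and 0.06 for Idh3b, another subunit of that enzyme. Idh3a, its catalytic subunit, had 192 ± 22.1 CPM in KO libraries and 184 ± 15.7 CPM in WT libraries.

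The NADP-dependent isocitrate dehydrogenases overlapped between the labels as well. Idh1, the cytosolic form, had 239 ± 39.2 CPM in KO libraries and 256 ± 20.5 CPM in WT libraries. Idh2 (ENSMUSG00000030541), the mitochondrial form, had 129, 95.1, 118 and 69.2 CPM in KO1 to KO4, against 102, 130.1, 101 and 109 CPM in WT1 to WT4. KO4 was the lowest of all 8 libraries, and the log2 fold change of -0.10 (95% interval -0.48 to 0.27) became 0.05 without KO4. Aco1, the cytosolic aconitase, had 190.3 ± 16.2 CPM in KO libraries and 185 ± 24.7 CPM in WT libraries.

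The genes of the remaining steps also overlapped between the labels. Ogdh and Dlst, subunits of oxoglutarate dehydrogenase, had 283 ± 47.9 and 153 ± 17.7 CPM in KO libraries, against 285 ± 36.2 and 151 ± 13.7 CPM in WT libraries. Sucla2, Suclg1 and Suclg2, subunits of succinyl-CoA ligase, had 96.3 ± 6.47, 70.5 ± 7.52 and 37.4 ± 4.48 CPM in KO libraries, against 105 ± 12.0, 75.5 ± 14.7 and 38.6 ± 4.20 CPM in WT libraries. Fumarase, Fh1, had 81.3 ± 6.37 CPM in KO libraries and 80.4 ± 13.7 CPM in WT libraries. Mdh1 had 246 ± 16.9 CPM in KO libraries and 251 ± 22.3 CPM in WT libraries, and Mdh2 had 171 ± 18.0 CPM in KO libraries and 169 ± 25.9 CPM in WT libraries. The log2 fold changes of Dlst and Mdh2, both 0.02, were 0.24 and 0.17 with the skeletal muscle index as a covariate.

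Got1 (ENSMUSG00000025190), which makes or uses cytosolic aspartate, had the largest log2 fold change of the 31 and the widest spread. It had 75, 31, 30 and 46 reads in KO1 to KO4, against 49, 22, 18 and 31 reads in WT1 to WT4. KO1 had the most reads and WT3 the fewest, and the groups overlapped. The log2 fold change was 0.55 ± 0.37 (SE; 95% interval -0.27 to 1.36; edgeR adjusted p = 0.998). It was 0.17 without KO1, 0.88 without WT1 and -0.01 with the skeletal muscle index as a covariate. Got2 had 26.5 ± 6.02 CPM in KO libraries and 27.4 ± 5.72 CPM in WT libraries, and Glud1, glutamate dehydrogenase, had 202 ± 8.51 CPM in KO libraries and 214 ± 26.4 CPM in WT libraries.

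**Figure D2:**
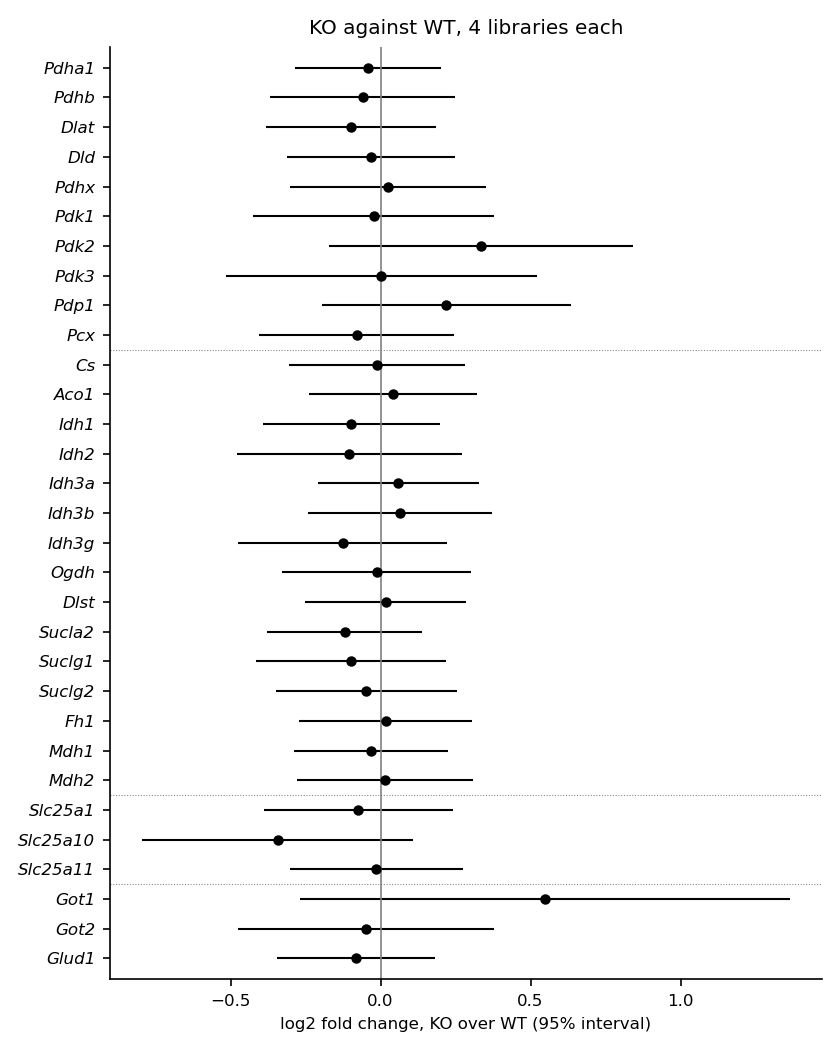
Log2 fold change, KO over WT, of each of the 31 genes, with points for the estimate and bars for the 95% interval (edgeR quasi-likelihood fit, 4 libraries a label). Rows run from pyruvate use at the top through the cycle and the carriers to the amino acid genes at the bottom. Every interval includes 0, and Got1 has the widest.

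Some of these values are uncertain because reads can be shared with near-identical copies. The share of 50-base stretches of the gene that also occur in another gene was 32.3% for Got2, whose pseudogene Got2-ps1 had 38 to 56 reads in KO libraries and 39 to 61 in WT libraries. It was 30.3% for Pdhb, 19.1% for Suclg2, 8.1% for Glud1 and 4.0% for Cs. Suclg2, with 87 to 116 reads, shared most of these stretches with Gm15163. That gene had 59 to 79 reads in KO libraries and 74 to 88 in WT libraries. Its part in the relation of Suclg2 given further on was not tested. Pdha1 overlaps Map3k15, and Slc25a11 overlaps Rnf167, on the opposite strand.

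Other genes of the pathway, came from a list of 27. Of these, 25 were in the table and 24 were tested, with a log2 fold change above 0 for 15 and below 0 for 9 (median 0.04) and 0 past the adjusted threshold. Ldhb, a lactate dehydrogenase subunit, was the only one with an unadjusted p under 0.05. It had 41.9, 30.9, 30.9 and 19.6 CPM in KO1 to KO4, against 12.8, 27.9, 16.1 and 21.9 CPM in WT1 to WT4 (log2 fold change 0.65, edgeR adjusted p = 0.998). The next smallest p were those of Gpt, alanine aminotransferase (log2 fold change -0.34), Slc25a13, an aspartate-glutamate carrier (-0.76), and Dhtkd1, a dehydrogenase related to Ogdh (0.24), all from the same edgeR fit. Mpc1 and Mpc2, the mitochondrial pyruvate carrier, were not matched by symbol and were not analysed here.

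The second comparison set the 31 genes against lipogenic transcripts, library by library. The lipogenic index is the mean log2 CPM of Fasn, Acaca, Acly, Elovl6, Scd1 and Acss2, which make and modify fatty acids or supply their acetyl-CoA. The index was 9.08, 10.01, 9.33 and 10.52 in KO1 to KO4, against 9.42, 9.64, 10.22 and 9.95 in WT1 to WT4. KO1 and KO4 were the lowest and the highest of all 8, a 2.72-fold range on the linear scale, and the labels' means did not differ beyond the spread (9.74 ± 0.65 in KO libraries and 9.81 ± 0.35 in WT libraries, SD, n = 4 each; exact two-sided permutation p = 0.857). Fasn, fatty acid synthase, ran from 1466 (KO1) to 6493 CPM (KO4), and Acly, which cleaves exported citrate, from 108 (KO1) to 493 CPM (KO4). Scd1, the stearoyl-CoA desaturase, ran only from 76732 to 103830 CPM.

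The citrate and dicarboxylate carriers and citrate synthase had the highest correlations with this index, and no relation passed adjustment. Pearson's r had an exact p under 0.05 and a positive sign for 3 of the 31, or 9.68%, against 3.83% of 14550 genes, and a negative sign for 5 of the 31, or 16.1%, against 4.62%. After Benjamini-Hochberg adjustment over the 14550 genes, 0 were left (percent called 0), among the 31 or elsewhere, and the smallest adjusted p was 0.226. The median size of r was 0.55 over the 31 and 0.34 over all genes, with 13 positive and 18 negative among the 31. Its sign was kept by 28 of the 31 when KO1 and KO4, the libraries farthest from the median index, were left out. Some of the 31 followed each other over the same 8 libraries, so these shares and the median do not count separate results. Among Idh2, Slc25a11, Pdk2 and Idh3b, r between pairs was 0.715 to 0.952. Among Slc25a1, Slc25a10 and Cs it was 0.611 to 0.788. With the index taken as the log2 of the summed CPM of its genes, of which Scd1 made up 91.8% to 97.8%, 2 of the 31 had a positive and 0 a negative r with an exact p under 0.05, against 2.18% and 1.25% of all genes, and r was 0.44 for Slc25a1, 0.55 for Slc25a10 and 0.92 for Cs. The exact p-values rest on all pairings of the 8 libraries and are two-sided.

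Slc25a10 stood in the same order as the index within each label. In KO libraries both ran upward as KO1, KO3, KO2 and KO4, and in WT libraries as WT1, WT2, WT4 and WT3. Over the 8 libraries r was 0.86 (exact p = 0.0101, adjusted p = 0.462) and Spearman's rho was 0.90 (exact p = 0.00456), with r at 0.76 without KO1 and KO4. With the index as a covariate, the KO against WT log2 fold change of Slc25a10 was -0.32 (edgeR adjusted p = 0.904). Slc25a1 had an r of 0.82 (exact p = 0.0118, adjusted p = 0.477) and a rho of 0.90 (exact p = 0.00456), with r at 0.94 without KO1 and KO4. Leaving out each library in turn left r between 0.79 and 0.93 for Slc25a10 and between 0.80 and 0.90 for Slc25a1, with an exact p under 0.05 in 8 of 8 cases for both.

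Cs had an r of 0.73 (exact p = 0.0382, adjusted p = 0.571) and a rho of 0.71 (exact p = 0.0576), and r was 0.64 without KO1 and KO4. With one library left out at a time, its exact p stayed under 0.05 in 2 of 8 cases. Pcx had an r of 0.69 (exact p = 0.0550, adjusted p = 0.596) and a rho of 0.76 (exact p = 0.0368), and r was 0.81 without those libraries. The slope was 0.68 log2 units per unit of the index for Slc25a10, against 0.33 for Slc25a1, 0.28 for Pcx and 0.24 for Cs. Of the pyruvate dehydrogenase subunits, Dld had an r of 0.72 (exact p = 0.0541, adjusted p = 0.596; rho 0.74, exact p = 0.0458), which was 0.35 without KO1 and KO4. Pdhb had an r of 0.63 (exact p = 0.0967, adjusted p = 0.633; rho 0.62, exact p = 0.115) and Pdha1 one of -0.18 (exact p = 0.676, adjusted p = 0.926; rho -0.31, exact p = 0.462).

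**Figure D3:**
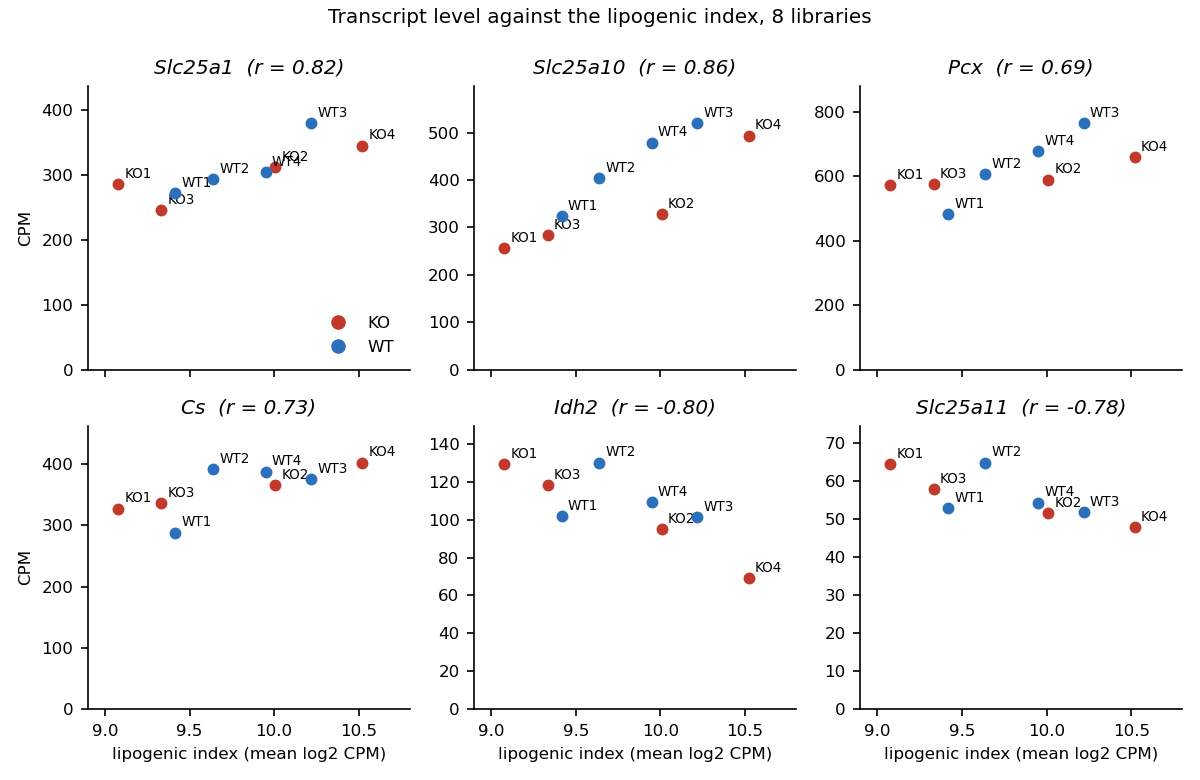
CPM (vertical axis) against the lipogenic index (horizontal axis, mean log2 CPM of 6 genes) for 6 genes, one point a library, with KO and WT in their own colours. Slc25a1, Slc25a10, Pcx and Cs slope upward with r of 0.82, 0.86, 0.69 and 0.73, while Idh2 and Slc25a11 slope downward with r of -0.80 and -0.78.

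The 5 genes with a negative r and an exact p under 0.05 were cycle subunits, a carrier and a kinase. Suclg2, the GTP-forming succinyl-CoA ligase subunit, had an r of -0.82 (exact p = 0.0109, adjusted p = 0.477; rho -0.69, exact p = 0.0694), and r was -0.70 without KO1 and KO4. Idh2 had an r of -0.80 (exact p = 0.0132, adjusted p = 0.477; rho -0.79, exact p = 0.0279), which was -0.49 without KO1 and KO4. Slc25a11 had an r of -0.78 (exact p = 0.0256, adjusted p = 0.542; rho -0.79, exact p = 0.0279), which was -0.48 without them. Pdk2 had an r of -0.74 (exact p = 0.0299, adjusted p = 0.560; rho -0.74, exact p = 0.0458), which was -0.40 without them. Idh3b had an r of -0.71 (exact p = 0.0498, adjusted p = 0.591; rho -0.71, exact p = 0.0576), which was -0.39 without them. For Idh2, Slc25a11, Pdk2 and Idh3b the relation therefore rests to a large degree on KO1 and KO4. With one library left out at a time, the exact p stayed under 0.05 in 7 of 8 cases for Idh2 and Suclg2, in 5 for Slc25a11 and in 2 for Pdk2 and Idh3b.

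**Figure D4:**
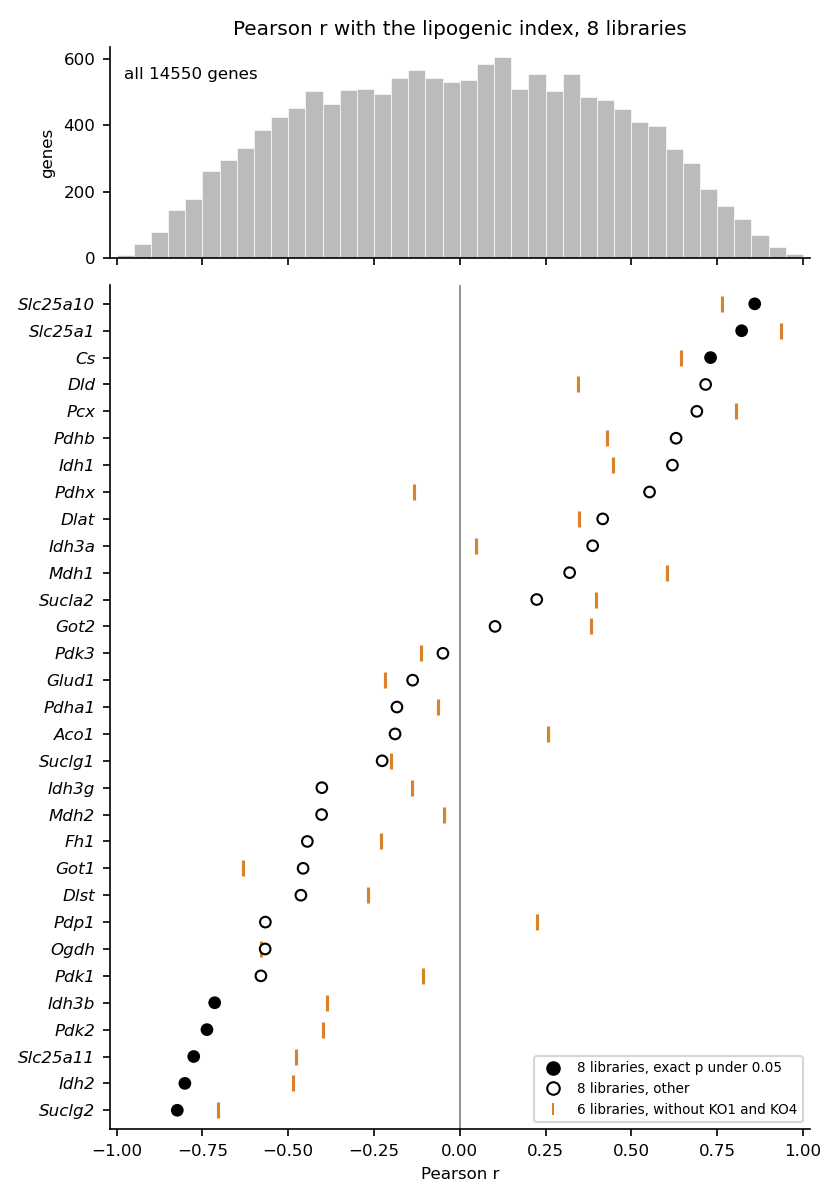
Pearson r with the lipogenic index. The upper panel counts all 14550 genes by r, and the lower panel shows the 31 genes, with circles for all 8 libraries (filled where the exact p is under 0.05) and bars for the 6 libraries without KO1 and KO4. Slc25a10 and Slc25a1 lie at the positive end at 0.86 and 0.82, and Suclg2 and Idh2 at the negative end at -0.82 and -0.80.

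The sign of r within the 4 KO libraries differed from that within the 4 WT libraries for 12 of the 31 genes and was the same for 19. The share over all genes was not counted. Slc25a10, Slc25a1, Pcx, Cs, Suclg2, Idh2, Slc25a11 and Idh3b were among the 19, and Pdk2 was among the 12. A shared sign does not mean a similar size. With 4 libraries a label and no p, r in KO and WT libraries was -0.99 and -0.27 for Idh2 and -0.98 and -0.35 for Slc25a11. It was -0.95 and -0.19 for Idh3b and -0.94 and -0.73 for Suclg2. For the positive relations it was 0.96 and 0.97 for Slc25a10 and 0.82 and 0.94 for Slc25a1. Pcx had 0.91 and 0.97, and Cs 0.99 and 0.66.

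Ratios within a library put genes with opposite signs side by side. The ratio of Slc25a1 to Slc25a11 reads was 4.44, 6.05, 4.23 and 7.22 in KO1 to KO4, against 5.15, 4.52, 7.33 and 5.6 in WT1 to WT4. The ratio of Idh1 to Idh2 reads was 1.58, 2.98, 1.77 and 3.77 in KO1 to KO4, against 2.38, 2.13, 2.33 and 2.46 in WT1 to WT4. KO4 was the highest and KO1 the lowest in the Idh1 to Idh2 ratio, and the WT libraries lay between them.

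**Figure D5:**
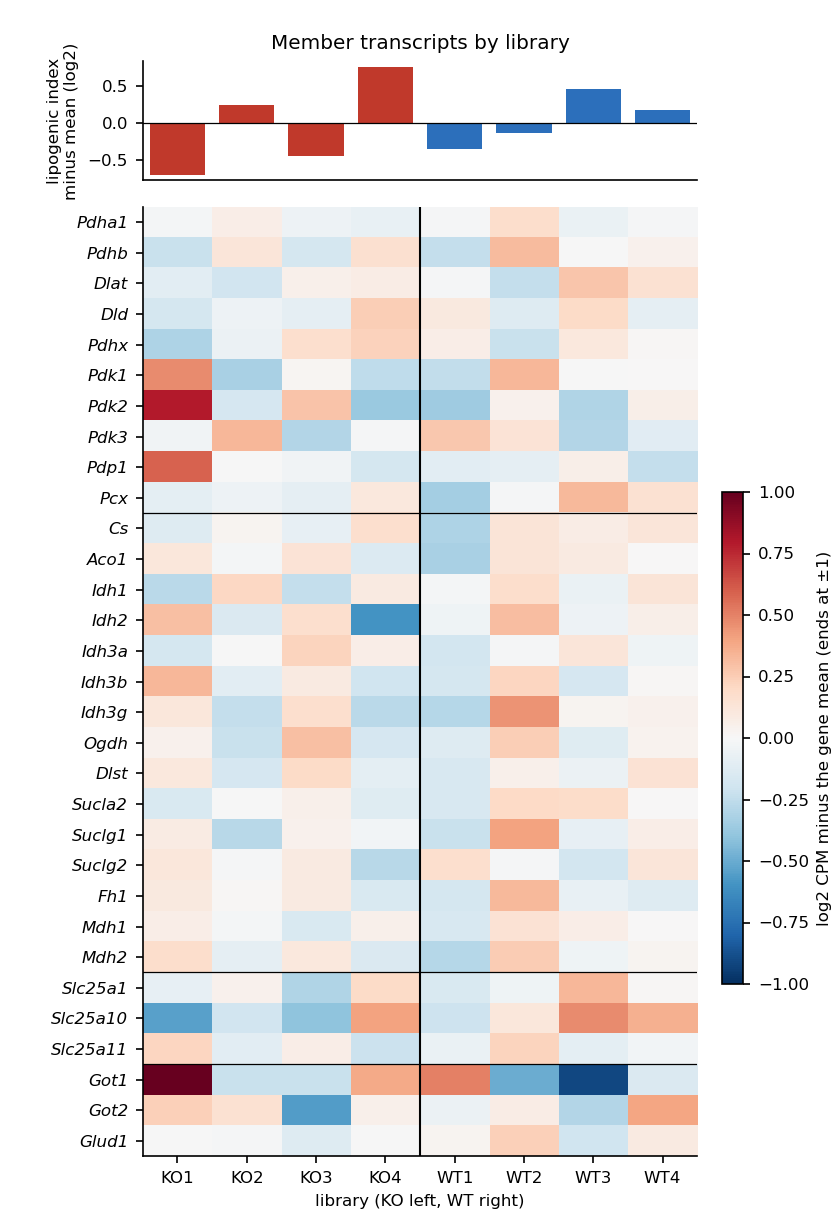
Transcripts of the 31 genes by library, KO left and WT right, as log2 CPM minus each gene's mean (colour scale ending at 1 in each direction), grouped as pyruvate use, cycle, carriers and amino acid genes. The upper bars give the lipogenic index minus its mean. KO1, the library with the lowest index, has high Pdk2, Pdp1 and Got1, and KO4, with the highest index, has low Idh2.

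Between the labels, 0 of the 6 index genes and 0 of 11 other lipogenic genes passed the adjusted threshold. Of these 11, a log2 fold change above 0 was found for 8 and one below 0 for 3, and the smallest p belonged to Mlxipl (0.38), Gpam (0.32), Acacb (0.40) and Aacs (0.17), with log2 fold changes in parentheses. Along the index, r of the 11 lipogenic genes outside it was graded, from 0.96 for Scd2 to -0.16 for Acacb. Of these 11, 4 had an exact p under 0.05, each with a positive r, against 3.83% of all genes. Scd2, another stearoyl-CoA desaturase, had an r of 0.96 (exact p = 0.000223, adjusted p = 0.250; rho 1.0, exact p = 4.96e-05), and 0.94 without KO1 and KO4. Me1, the malic enzyme that returns carbon to pyruvate, had 187, 442, 241.4 and 583 CPM in KO1 to KO4, against 414, 351, 583 and 405 CPM in WT1 to WT4. Its r was 0.90 (exact p = 0.00169, adjusted p = 0.321; rho 0.90, exact p = 0.00456), and 0.82 without KO1 and KO4. Pnpla3, a lipase-family gene, had an r of 0.81 (exact p = 0.00553, adjusted p = 0.431; rho 0.81, exact p = 0.0218), which was 0.59 without them. Dgat2, which makes triglyceride, had an r of 0.84 (exact p = 0.0106, adjusted p = 0.472; rho 0.83, exact p = 0.0154), which was 0.83 without them. Of the 24 other pathway genes, 2 had a positive and 2 a negative r with an exact p under 0.05, against 3.83% and 4.62% of all genes. Gpt had an r of 0.75 (exact p = 0.0401, adjusted p = 0.574; rho 0.67, exact p = 0.0831), which was 0.56 without KO1 and KO4, and Ldha, the other lactate dehydrogenase subunit, one of 0.72 (exact p = 0.0465, adjusted p = 0.588; rho 0.83, exact p = 0.0154), which was 0.57. Glul, glutamine synthetase, had an r of -0.77 (exact p = 0.0134, adjusted p = 0.478; rho -0.74, exact p = 0.0458), which was -0.35 without KO1 and KO4, and Me3, a mitochondrial malic enzyme, one of -0.71 (exact p = 0.0410, adjusted p = 0.576; rho -0.76, exact p = 0.0368), which was -0.42.

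Among all genes tested, the 5 whose pattern over the 8 libraries was most like that of Slc25a1 by Pearson's r were Gtf2h2 (0.95), Xrcc5 (0.95), Zzef1 (0.95), Gm8522 (0.94) and Clec4b1 (0.93). For Pcx they were Fam123b (0.96), 2810430I11Rik (0.95), Exosc1 (0.95), BC002059 (0.94) and Gramd1b (0.93). For Cs they were Ppp2r5a (0.97), Napa (0.97), Fpgs (0.96), Gm14508 (0.96) and Klhdc5 (0.95). None of these 15 is one of the 31 or a lipogenic gene of the lists. They are the top values over all genes tested with 8 libraries, and whether chance gives such values was not tested. Their mean levels ran from 3.98 CPM for Clec4b1 to 576 CPM for Ppp2r5a, with Xrcc5 at 8.80 and Gtf2h2 at 9.53 CPM.

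Markers of cell types were set beside the same index, over 8 lists. The mean log2 CPM of the 5 fibroblast markers had an r of 0.59 with the index (exact p = 0.123, adjusted p = 0.372; rho 0.57, exact p = 0.151), the 8 adipocyte markers one of -0.57 (exact p = 0.140, adjusted p = 0.372; rho -0.52, exact p = 0.197). The 3 tested brain or nerve markers had an r of -0.58 (exact p = 0.123, adjusted p = 0.372; rho -0.48, exact p = 0.243). Without KO1 and KO4, r was 0.66 for the fibroblast and -0.29 for the adipocyte markers. For the brain or nerve markers its sign turned, to 0.36. All 5 brain or nerve markers summed to 555 CPM in KO1 against 97.3 to 134 CPM in the other KO libraries and 102 to 198 CPM in WT libraries. The 20 skeletal muscle markers had an r of 0.10 (exact p = 0.820, adjusted p = 0.827; rho 0.26, exact p = 0.536). With the muscle index taken out by a line, r was 0.94 for Slc25a10 and 0.82 for Slc25a1, and -0.85 for Idh2 and -0.78 for Slc25a11. The part of the fibroblast, adipocyte and nerve markers in these relations was not tested.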

How the data were processed

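Poly(A) RNA of subcutaneous fat from 8 mice was sequenced from libraries without strand information, per the labels' protocols. The authors deposited whole-number read counts per Ensembl gene and library, not normalized, and a table of their own KO against WT comparison. Its log2 fold changes, log2 mean levels, p-values and adjusted p-values are named as in edgeR output, per the file headers. Build mm9 and the tools FastQC, Bowtie2 and edgeR are named, per the submitters' processing notes. Neither the counter nor the annotation is stated in the labels or headers.

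The genes and lists were chosen with earlier results of these data known. All 31 genes were to be named, and of other lists the 4 with the smallest p in each comparison. The motifs were chosen after the data were seen. Groups and replicate numbers came from the sample titles. No 2 libraries of a label agreed within sampling noise (smallest chi-square per gene 4.45, genes with at least 20 summed reads). There were 98 genes without a symbol.

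KO was compared with WT by edgeR 4.0.16's quasi-likelihood test (R 4.3.3; TMM, filterByExpr, robust fit, Benjamini-Hochberg adjustment over 14556 genes, threshold 0.05), with the label as the only term; common dispersion was 0.0337. Each standard error is the size of the log2 fold change divided by the square root of F, and intervals are 95%. The index and correlations used log2 of TMM-scaled CPM plus 0.5, with exact permutation p-values over 14550 genes, the 6 index genes left out. Both procedures were tested on simulated data. Libraries held 2617755 to 2873457 reads, and 4 mice a label limit the precision. Lengths and shared stretches came from GENCODE M21 (GRCm38), another build than the authors', so no gene coordinates are given; promoters came from RefSeq. Alternatives were DESeq2 1.42.0 and its size factors, no filter, the replicate number as a block, muscle or lipogenic index as a covariate, other indices, unscaled CPM and each library left out; a fit without KO1, KO2 and KO4 was chosen after the data were seen.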

Additional observations from a re-analysis of the deposited data

Results flagged for a closer look

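In each label's 4 libraries, 62 groups of values were checked for a library far from the other 3, and 2 stood out by a gap to the nearest other library that took up most of the group's range; chance gives about 1 in 20 such groups. Cs was at 288 CPM in WT1, against 376 to 391 CPM in the other WT libraries. Glud1 was at 189 CPM in KO3, against 205 to 207 CPM in the other KO libraries.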

How the results depend on the processing

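No gene was called with DESeq2's size factors, no filter, either covariate or the replicate block, whereas DESeq2 called 44 genes higher and 5 lower, and edgeR without KO3 called 50 higher. Without KO1, KO2 and KO4, 0 genes were called, but KO3 alone then stands against 4 WT libraries and is assumed to vary like them, so this says nothing of stability. With each library left out, the genes called higher numbered 0 to 50 and those called lower 0. No replicate pairing was found: deviations of same-numbered libraries correlated at -0.14, -0.29, -0.20 and -0.27. The replicate block called 0 genes, but so did the fit without it, so that count says nothing of pairing. Leaving out each library moved the KO minus WT difference of the lipogenic index between -0.33 and 0.15, and that of the muscle index between 2.36 and 3.72 (exact permutation p = 0.0857 with all libraries and 0.0286 without KO3, the smallest that 3 against 4 can give).

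The log2 fold change turned sign with the muscle index as a covariate for Pdk1 (0.012), Pdk3 (-0.20), Pdp1 (-0.0088), Cs (0.026), Idh2 (0.12), Idh3g (0.11), Ogdh (0.27), Suclg1 (0.050), Suclg2 (0.11), Slc25a11 (0.069) and Got1 (-0.013), and with the lipogenic index as a covariate for Cs (0.0053) and Mdh2 (-0.0023). That of Pdk3 also turned with no filter (-0.0044), the replicate block (-0.0028) and DESeq2 (-0.0031). Leaving out one library turned the sign for these genes, with the lowest and highest value of each: Pdha1 (-0.073 to 0.010), Pdhb (-0.14 to 0.044), Dld (-0.13 to 0.030), Pdhx (-0.050 to 0.12), Pdk1 (-0.22 to 0.088), Pdk3 (-0.13 to 0.10), Pcx (-0.19 to 0.025), Cs (-0.11 to 0.030), Aco1 (-0.049 to 0.093), Idh2 (-0.23 to 0.046), Idh3a (-0.0099 to 0.12), Idh3b (-0.046 to 0.15), Idh3g (-0.23 to 0.018), Ogdh (-0.13 to 0.073), Dlst (-0.046 to 0.071), Suclg1 (-0.18 to 0.035), Suclg2 (-0.11 to 0.033), Fh1 (-0.038 to 0.14), Mdh1 (-0.087 to 0.014), Mdh2 (-0.069 to 0.11), Slc25a1 (-0.15 to 0.035), Slc25a11 (-0.093 to 0.062) and Got2 (-0.15 to 0.10).

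Relations with an exact p under 0.05 numbered 0 negative with the summed index, and 5 positive and 6 negative with muscle residuals, against 5.31% and 6.17% of all genes. With a library left out there were 2 to 4 positive and 1 to 8 negative, against 2.32% to 6.44% and 2.68% to 5.99% of all genes. The sign of r turned with Fasn alone for Pdk3 (0.015), and with the summed index for Pdha1 (0.29), Dld (-0.18), Pdhx (-0.14), Pdk1 (0.15), Pdk2 (0.038), Aco1 (0.50), Idh3b (0.15), Idh3g (0.33), Ogdh (0.088), Dlst (0.28), Suclg1 (0.43), Fh1 (0.22), Mdh2 (0.46), Slc25a11 (0.0059) and Glud1 (0.32). With a library left out it turned for Pdha1 (-0.31 to 0.052), Pdk3 (-0.29 to 0.17), Aco1 (-0.77 to 0.032), Sucla2 (-0.042 to 0.60), Got2 (-0.26 to 0.36) and Glud1 (-0.33 to 0.12). Outside the libraries left out, 170 of the log2 fold changes and 98 of the r values kept direction and side of the threshold. The cause of these turns was not tested. Most fold changes lie within their standard errors of 0, so their signs are not determined at this depth and number of mice.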
